A study of Homo sapiens with 6 samples.

Results

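The AKR1 aldo-keto reductases are a family of cytosolic enzymes, and 6 of them (AKR1A1, AKR1B1, AKR1B10, AKR1C1, AKR1C2 and AKR1C3) were described here in M14 cells, an established human melanoma line. RNA was sequenced from M14 cells grown attached to plastic (2D, 3 libraries) and from the same line grown in suspension, where it forms spheres of many cells called melanospheres (3D, 3 libraries). The study set out to characterise the cells of the spheres as putative cancer stem cells, and the labels give no treatment, genotype change or time point for either culture. The 6 genes were taken by symbol from the 26748 genes of the deposited table, and all 6 had a row. They were chosen by family membership with results of this contrast in view, in which the value of AKR1C2 had 1 of the largest rises, so the differences of the 6 genes between 2D and 3D are given as a description: no p is given for them, and a mention that a member passed or missed the threshold used for all genes is no evidence about it. The other genes of related pathways, named further on, were tested.

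Aldo-keto reductases use NADPH to reduce aldehydes and ketones to alcohols, on sugars, lipids, retinoids, steroids and prostaglandins. AKR1A1 (aldehyde reductase) and AKR1B1 (aldose reductase, which turns glucose into sorbitol in the polyol pathway) are widely expressed. AKR1B10 reduces retinal and lipid aldehydes, and the AKR1C enzymes reduce steroid hormones and, for AKR1C3, prostaglandins. In many human cells AKR1B10 and the AKR1C genes are known targets of NRF2, a transcription factor that answers oxidative and electrophilic stress through antioxidant response elements. This is background knowledge and was not measured here.

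The 3 AKR1C genes lie side by side on chromosome 10 (GRCh38, GENCODE 29), AKR1C1 at chr10:4963253-4983283 on the plus strand, AKR1C2 at chr10:4987400-5018031 on the minus strand and AKR1C3 at chr10:5035354-5107686 on the plus strand. AKR1B1 at chr7:134442350-134459284 (minus strand) and AKR1B10 at chr7:134527592-134541408 (plus strand) are also neighbours, and AKR1A1 stands at chr1:45550543-45570049 (plus strand). The coding sequences of AKR1C1, AKR1C2 and AKR1C3 are each 972 bases long. AKR1C1 and AKR1C2 differ at 19 of these bases and at 7 of 323 residues, so that 98.0% of the bases are the same. AKR1C1 and AKR1C3 differ at 79 bases (91.9% the same) and at 40 residues, and AKR1C2 and AKR1C3 at 85 bases.

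The following 60 coding bases show how reads of the 3 genes can be told apart. They are coding bases 103 to 162, counted from the A of the start codon, in exon 2 of the GENCODE transcripts used. Of the 60-base stretches of the coding sequence that begin at a codon, none holds more differences between AKR1C1 and AKR1C2. Capitals mark bases that differ from AKR1C1, 10 in AKR1C2 and 7 in AKR1C3. The stretch lies at chr10:4965932-4965991 in AKR1C1, chr10:5001604-5001663 in AKR1C2 and chr10:5096428-5096487 in AKR1C3.
AKR1C1: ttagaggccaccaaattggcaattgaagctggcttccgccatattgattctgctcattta
AKR1C2: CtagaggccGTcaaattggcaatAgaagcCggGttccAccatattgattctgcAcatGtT
AKR1C3: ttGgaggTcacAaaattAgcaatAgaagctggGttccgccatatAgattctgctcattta

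Over the rest of the coding sequence AKR1C1 and AKR1C2 are harder to separate, and their last 189 coding bases (784 to 972) are identical. Of all 75-base windows in the transcripts of AKR1C2, 30.1% also occur in a transcript of another gene, nearly all of them in AKR1C1 (29.1% of the windows). The share was 21.9% for AKR1C1, 2.87% for AKR1C3, 6.07% for AKR1B10 (in AKR1B15 and a pseudogene), 0.43% for AKR1B1 and 0.055% for AKR1A1. With windows of 50, 100 and 150 bases, the share for AKR1C2 was 38.9%, 23.1% and 13.7%. How the authors' counting treated reads that match more than 1 gene is not given in the sources used here, so the values of AKR1C1 and AKR1C2 are uncertain where they share sequence, and the sum of the 3 AKR1C genes is given beside them. An antisense gene, AL391427.1, lies within the span of AKR1C2 and had no row in the deposited table. Whether the exons of the 2 genes overlap was not tested. Because the kit is unstranded, reads from any exon bases they share cannot be told apart by strand.

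Depth was similar throughout, from 16567763 to 19954987 recovered reads per library, and values below are normalised counts, that is, read counts divided by 1 scaling factor per library. Within each culture 1 library stood apart. Across genes, log2 values of 2D replicate 3 correlated with the other 2D libraries at 0.935 to 0.937, against 0.985 between those, and 3D replicate 2 with the other 3D libraries at 0.965 to 0.966, against 0.987. Of the markers of the melanocytic lineage, SOX10, TYR, MLANA and S100B had at most 37.0 normalised counts in any library, MITF had 887 to 1295 normalised counts in 2D and 271 to 309 in 3D, PMEL had 227 to 753 in 2D and 620.4 to 1377 in 3D, and the 8 melanocytic markers summed to 1596 to 1873 in 2D and 910.2 to 1666 in 3D. Of the 3 melanocytic markers tested, MITF and DCT passed as lower in 3D and PMEL did not pass. DCT had log2 changes of -5.99 to -5.03 with 1 library left out. The 3 fibroblast markers analysed, chiefly COL1A1 and COL3A1, summed to 1980.4 to 6003 in 2D and 8282 to 11966 in 3D, with DCN, the third, at most 3.88 in any library. The 5 endothelial markers summed to 39.5 to 319 in 2D and 138 to 188 in 3D, among them PECAM1 at 0, 0 and 9.25 in 2D and 94.6, 154 and 101.2 in 3D, with KDR and TEK at most 2.14 in any library. VWF and CDH5 did not pass the threshold used for all genes. With 1 library left out, their log2 changes (3D minus 2D) were -1.12 to -0.57 and -1.96 to 0.13. The median of the 3 endothelial markers tested was -0.82. The leukocyte markers PTPRC and CD14 had at most 4.27 in any library. The 3 keratinocyte markers analysed, chiefly KRT10, summed to 929 to 2133 in 2D and 729 to 1177 in 3D. The part of these markers in the AKR1 values was not tested.

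AKR1C1, AKR1C2, AKR1C3 and AKR1B10 were higher in all 3 libraries of the spheres than in any adherent library, by log2 changes of 4.64 to 6.36. AKR1A1 and AKR1B1 were abundant in both cultures, and their values overlapped between the cultures. In RNA of whole cultures, more cells that express a gene and more RNA per cell cannot be told apart. So 4 of the 6 genes were past the threshold used for all genes (limma, Benjamini-Hochberg adjusted p under 0.05), all of them higher in 3D, and 2 were not. Of all 15598 genes tested, 24.1% passed it, 12.5% higher in 3D and 11.6% lower. The cultures did not overlap for 4 of the 6 genes and for 43.1% of all genes tested. Since the genes were chosen with this contrast known, nothing is read from these counts. All 6 genes passed the filter on low values, AKR1B10 and AKR1C2 only through their values in 3D.

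**Figure D1:**
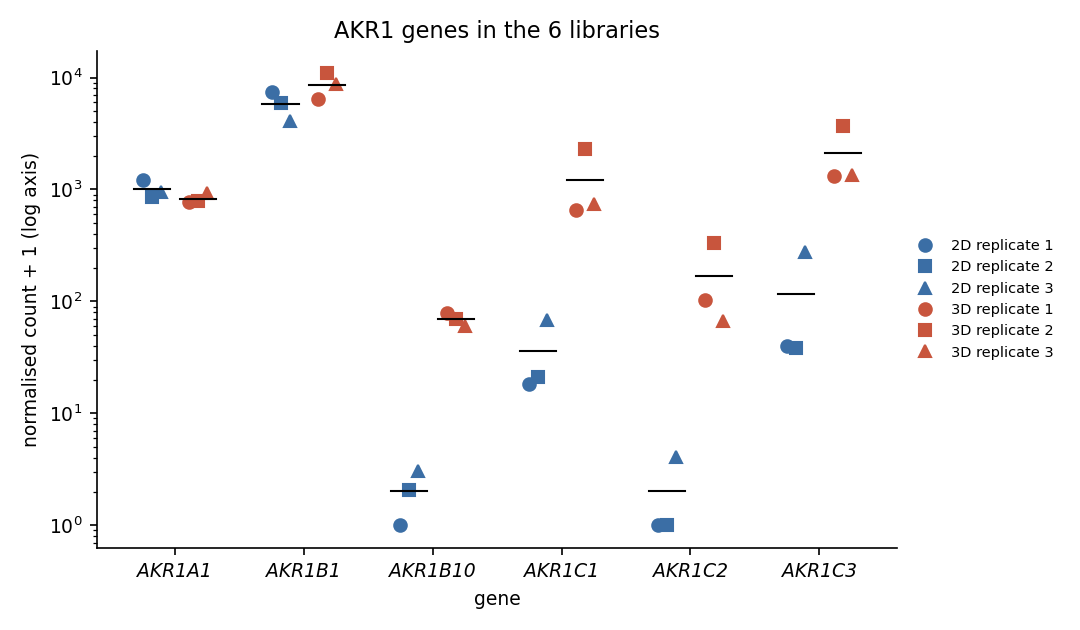
Normalised count plus 1 (log axis) of the 6 AKR1 genes in each library, 2D in blue and 3D in red, with the marker shape giving the replicate and the bar the mean of 3 libraries. AKR1C3 ran from 37.4 to 273 in 2D and from 1313 to 3679 in 3D, while the points of AKR1A1 and AKR1B1 overlap between the cultures.

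AKR1C3, which makes testosterone from androstenedione and F-type prostaglandins from their precursors, had the most reads of the AKR1C genes in every library. It had 39.1, 37.4 and 273 normalised counts in 2D replicates 1, 2 and 3, and 1313, 3679 and 1345 in 3D replicates 1, 2 and 3. The lowest 3D library was above the highest 2D library, but 2D replicate 3 stood at 7.16 times the mean of the other 2D libraries and 3D replicate 2 at 2.77 times that of the other 3D libraries. The means were 117 ± 136 in 2D and 2112 ± 1357 in 3D (SD, n = 3 each). The log2 change was 4.64 (SE 0.74), and it was 4.15 to 5.57 with 1 library left out.

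AKR1C1, which is best known for inactivating progesterone, was highest in the same library of each culture as AKR1C3. Its values were 17.2, 20.3 and 66.8 in 2D and 649, 2276 and 737 in 3D. The values of 2D replicate 3 and 3D replicate 2 were 3.57 and 3.29 times the mean of the others of their culture, and the cultures did not overlap. The means were 34.8 ± 27.8 and 1221 ± 915 (SD, n = 3 each), a log2 change of 5.12 (SE 0.60), and 4.54 to 5.71 with 1 library left out.

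AKR1C2, which reduces the potent androgen dihydrotestosterone to a weak metabolite, was all but absent from the adherent cells. It had 0, 0 and 3.08 normalised counts in 2D (0, 0 and 3 reads), and 102, 329.6 and 66.1 in 3D (110, 340 and 64 reads). All 3 reads of 2D came from replicate 3, and 3D replicate 2 held 3.92 times the mean of the other 3D libraries. The log2 change of 6.36 (SE 0.77) rests on those few 2D reads. Without 2D replicate 3 the 2D libraries held no read, and the level was at least 111-fold higher in 3D, counted against a floor of 3 reads over the culture, or 89.6-fold by the lower limit of the exact interval. The ratio of summed reads was 165 over all libraries, and leaving out another library gave between 83.9 (interval 28.2 to 411), when 3D replicate 2 was dropped, and 210.4 (71.5 to 1024), when 3D replicate 3 was. These exact 95% binomial intervals, and those that follow, cover counting error only.

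AKR1B10 was as low as AKR1C2 in 2D but varied least of the 4 genes in 3D. Its values were 0, 1.07 and 2.06 in 2D (0, 1 and 2 reads) and 77.9, 68.8 and 59.9 in 3D (84, 71 and 58 reads). The 3D libraries differed by a coefficient of variation of 13.1%, and here 3D replicate 2 was not raised over the others. The ratio of summed reads was 68.2 (interval 23.0 to 334), or 44.0 (14.9 to 215) if 2D replicate 1 was dropped and 137 (24.4 to 5453) if 2D replicate 3 was. The log2 change was 5.23 (SE 0.55), and 4.79 to 5.59 with 1 library left out. Its close relative AKR1B15, with no read in 2D and 11 in 3D, was too low to be tested. Counted against the same floor of 3 reads its 3D level was 3.52-fold higher, a value that leaves out the counting error of the 11 reads.

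AKR1B1 was the most abundant of the 6 genes in both cultures. It had 7476, 5895 and 4118 normalised counts in 2D and 6382, 10905 and 8711 in 3D. 2D replicate 1 lay above 3D replicate 1, so the cultures overlapped, and 2D replicate 3, the high library for the AKR1C genes, was the lowest for AKR1B1. The means were 5829.7 ± 1679.6 and 8666 ± 2261 (SD, n = 3 each), a log2 change of 0.58 (SE 0.28) that did not pass the threshold. It fell to 0.17 when 2D replicate 3 and 3D replicate 2 were both left out.

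AKR1A1 differed least between the cultures. Its values were 1206, 857 and 955 in 2D and 774, 788 and 921 in 3D, with 2D replicate 1 the highest of the 6 libraries. The means were 1006 ± 179.7 and 828 ± 81.0 (SD, n = 3 each), and the log2 change of -0.27 (SE 0.19) was within the spread of the libraries.

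**Figure D2:**
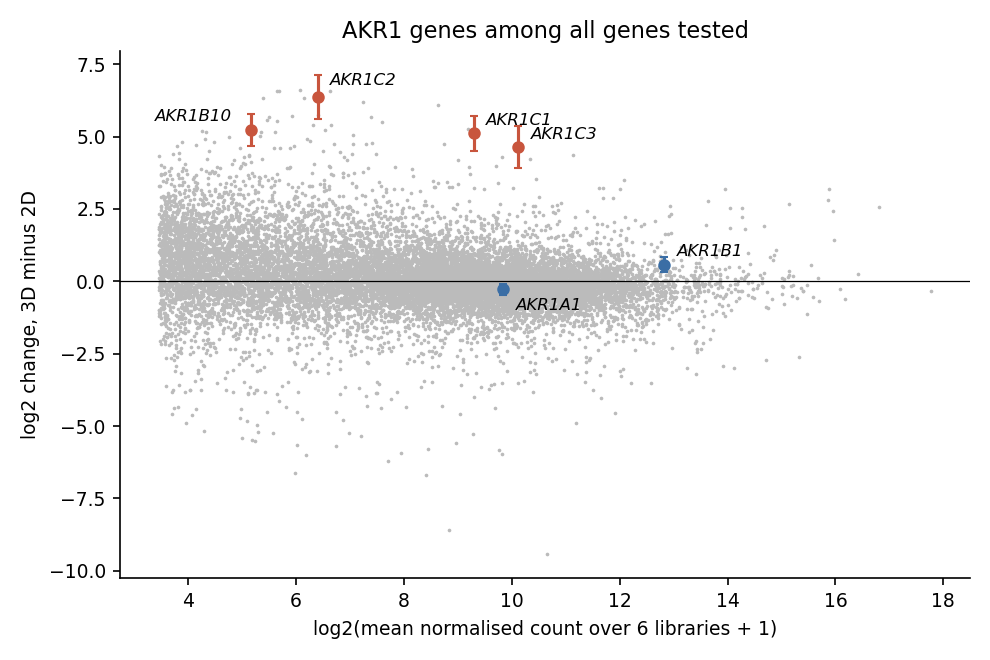
Log2 change of every gene tested (3D minus 2D, grey) against log2 of its mean normalised count plus 1, with the 6 AKR1 genes and their standard errors (red, past the threshold and higher in 3D; blue, not past it). Only 4 of 15598 genes had a larger log2 change than AKR1C2, and 20, 25 and 42 had a larger one than AKR1B10, AKR1C1 and AKR1C3.

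Summed over AKR1C1, AKR1C2 and AKR1C3, which leaves out how reads were divided among the 3 genes but not any reads that were discarded for matching more than 1 of them, the values were 56.2, 57.6 and 343 in 2D and 2063, 6284 and 2148 in 3D. As CPM, that is, reads scaled to the same library total, this is 2.96, 3.19 and 18.7 in 2D and 125, 371 and 126 in 3D. The means of the sum were 152 ± 165 and 3499 ± 2413 (SD, n = 3 each). 3D replicate 2 held 2.98 times the mean of the other 3D libraries, and 2D replicate 3 6.03 times that of the other 2D libraries.

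While the total moved by this much, the division of the reads among the genes was narrower. AKR1C3 took 58.5 to 63.6% of the AKR1C reads in the 3D libraries, AKR1C1 31.4 to 36.2% and AKR1C2 3.08 to 5.24%. In 2D, AKR1C3 took 64.8 to 79.6% and AKR1C1 19.5 to 35.2%. AKR1C2 took none of the 59 and 54 AKR1C reads of 2D replicates 1 and 2 and 0.898% of the 334 of replicate 3. The 2D shares rest on few reads: the share of AKR1C1 in 2D replicate 1, 30.5%, has a Wilson 95% interval of 20.3 to 43.1%. Since the 3 coding sequences are equally long, dividing by coding length leaves these shares the same. The reads can also come from noncoding exon bases, so these are not shares per base of the whole transcripts. They also depend on how reads that match more than 1 gene were counted, which is not given.

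**Figure D3:**
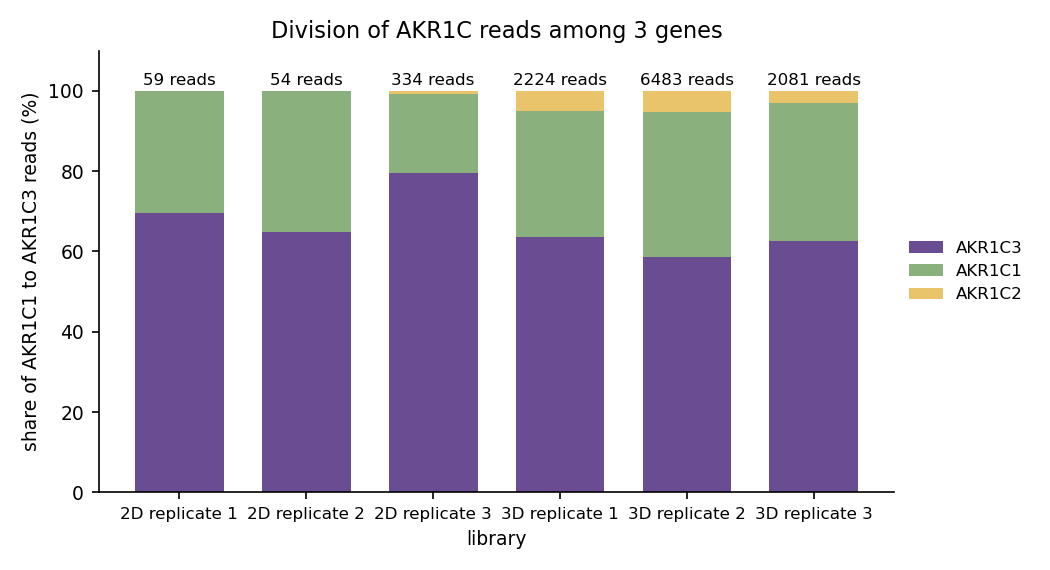
Share of the reads of AKR1C1, AKR1C2 and AKR1C3 (percent, bars from 0 to 100) that belongs to each gene, by library, with the number of reads above each bar. AKR1C3 holds the largest share in every library, between 58.5 and 79.6%, although the number of reads runs from 54 to 6483.

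Levels of different genes can be compared only per length. Per kilobase of the longest transcript, the order in 3D was AKR1B1 (4490.2 normalised counts per kilobase), AKR1C3 (1169), AKR1A1 (455), AKR1C1 (182), AKR1C2 (44.2) and AKR1B10 (43.3), and only the last pair overlapped between libraries. In 2D the order was AKR1B1 (3021), AKR1A1 (553), AKR1C3 (64.5), AKR1C1 (5.18), AKR1B10 (0.65) and AKR1C2 (0.27), again with only the last pair overlapping. The place of AKR1C1 depends on the length used, since its longest transcript has 6705 bases. Per kilobase of coding sequence it stood at 1256 in 3D, above AKR1A1 (846), with overlapping libraries, and AKR1C3 at 2173. So AKR1C3 stood below AKR1A1 in 2D and above it in 3D, though with overlapping 3D libraries per base of all exons, while AKR1B1 led in both cultures by each of the 3 lengths tried.

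Windows of 250 bases before the RefSeq start sites (GRCh38.p14) were searched for short motifs, because the AKR1C genes moved together. AKR1A1, AKR1B1 and the 3 AKR1C genes were in the promoter table, AKR1B1 and AKR1C3 with 2 start sites each, and AKR1B10 was not. The windows of AKR1C1 and AKR1C2 were 96.5% identical, with 1 mismatched base and 8 gap bases. Those of the AKR1C3 starts were 71.4% and 69.2% identical to AKR1C1. A CCAAT box (CCAAT, or ATTGG on the other strand) followed by GTTAAC, with 1 base shared between the motifs, was found in all 4 AKR1C windows. It is shown here in 30 bases of each, with the box in capitals and the gene's strand read 5′ to 3′. The stretches are chr10:4963330-4963359 (plus strand), chr10:5003917-5003946 (minus strand), chr10:5048700-5048729 (plus strand) and chr10:5094320-5094349 (plus strand), and the box begins 77, 81, 73 and 86 bases before the start site.
AKR1C1: cacatgccATTGGttaaccagcagacagtg
AKR1C2: cacatgccATTGGttaaccagcagacagtg
AKR1C3, first start: tacatgctATTGGttaaccattaggcagtg
AKR1C3, second start: tacatgccATTGGttaaccatcagtcagtt

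The 30 bases of AKR1C1 and AKR1C2 are the same. Of all 35116 windows of this length, 32.0% held a CCAAT box and 2.31% held GTTAAC, both strands searched. The core of the antioxidant response element (TGACNNNGC or TGAGNNNGC, N any base, both strands) had 1 match in AKR1C1 and 1 in AKR1C2, in both read as GCCAGCTCA on the gene's strand and beginning 41 and 45 bases before the start. It had none in the AKR1C3 windows, and 23.9% of all windows held it. AKR1B1 had a CCAAT box before 1 of its starts. An AP-1 site (TGANTCA) was in none of the windows of these genes and in 6.57% of all. A match of letters is a description, and no binding was measured.

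Within 500 kb of the AKR1C cluster 26 other genes are annotated, 7 had a row and 2 were tested. These are too few to say whether the neighbourhood moved as a block. Each of the 7 had a higher mean in 3D than in 2D, but all except NET1 and LASTR had a mean below 10 over the 6 libraries. More genes were detected in every 3D library (22458 to 23572) than in any 2D library (20841 to 21772). How often other genes this low had a higher mean in 3D was not tested. NET1, an exchange factor for RhoA, had 847 normalised counts in 2D and 1313 in 3D and did not pass (limma adjusted p = 0.26). LASTR, a long noncoding RNA, had 0, 0 and 2.06 in 2D and 13.0, 144 and 8.26 in 3D, with 3D replicate 2 the highest as for the AKR1C genes. It passed (limma adjusted p = 0.024) but no longer did so once either of the first 2D replicates or the first 3D replicate was left out. The pseudogene AKR1C7P, at 2.79 in 2D and 11.5 in 3D, was too low to be tested.

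Around AKR1B1 and AKR1B10, 6 other genes were tested, and 2 passed as higher and 1 as lower. LINC03060, a noncoding RNA, was at 29.3 ± 9.93 in 2D and 137 ± 27.4 in 3D (log2 2.23, SE 0.35, limma adjusted p = 0.0045). AGBL3 (log2 1.59, limma adjusted p = 0.034) was higher and CALD1, an actin-binding protein, lower (log2 -0.81, limma adjusted p = 0.037). AGBL3 kept its call in 1 of 6 fits with a library left out (2D replicate 3), and CALD1 in 2 (2D replicate 3 or 3D replicate 2). Of 16 genes tested around AKR1A1, only PIK3R3, a regulatory subunit of phosphoinositide kinase, passed (log2 2.09, limma adjusted p = 0.015), and it did so in 2 of the 6 such fits.

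Genes whose values over the 6 libraries were most like each AKR1 gene were listed by Pearson's r of log2(value + 1), among about 10463 genes with a mean of at least 100. The libraries form 2 cultures, so r here mainly follows the difference between them and is a description. For AKR1C1 these were PRDM1, ANPEP and ARHGAP31, for AKR1C2 PRDM1, FN1 and AKR1C1, and for AKR1C3 SNCG, PLA2R1 and TRIM6, each with r between 0.997 and 1.000. ANPEP, a surface aminopeptidase, had 84.8, 92.9 and 203 normalised counts in 2D and 1445, 4170.3 and 1741 in 3D, with the same high library in each culture as AKR1C1. For AKR1B10 they were LIF, DOCK6 and FRK (r 0.995 to 0.998). LIF, a cytokine, had 202, 225 and 273 in 2D and 623, 606 and 582 in 3D, and so shared with AKR1B10 the small spread in 3D. For AKR1B1 they were RNF121, NAA10 and SLC35C1, and for AKR1A1 FTSJ1, CUEDC2 and PEX14, with r from 0.968 to 0.983.

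Genes of the NRF2 system are set here beside the AKR1 genes. Of 29 other NRF2 target genes tested, 4 rose and 2 fell in 3D. Of all genes tested, 12.5% passed as higher and 11.6% as lower, and these shares stand beside each list below too. The median log2 change of the targets was 0.14, against -0.02 over all genes. ABCC2, an export pump, rose from 972 ± 449 to 2639 ± 108 (log2 1.53, SE 0.28, limma adjusted p = 0.0081), and EPHX1, an epoxide hydrolase, from 749 ± 181 to 1464 ± 132 (limma adjusted p = 0.012). HMOX1 and ME1, named after their values were seen, also rose, by log2 0.92 and 0.68 (limma adjusted p = 0.045 and 0.048). SLC7A11, the cystine importer, fell by 1.49 on the log2 scale (limma adjusted p = 0.014), and SLC48A1, a heme transporter, fell by 1.74 (limma adjusted p = 0.010). The abundant targets TKT, FTH1 and FTL did not pass. With 1 library left out, 2 of the 29 passed in the fit lacking 3D replicate 3, 3 in each fit lacking either of the first 2D replicates or the first 3D replicate, and 15 in that lacking 2D replicate 3. Without 2D replicate 3 there were 12 higher and 3 lower.

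The 2 libraries that were high for the AKR1C genes were also high for these targets. 2D replicate 3 was the highest 2D library for 23 of the 29 targets (79.3%, against 42.6% of all genes tested), and 3D replicate 2 the highest 3D library for 23 of 29 (79.3%, against 39.3%). The mean of the targets' log2 values, each centred on its gene's mean, was -0.23, -0.37 and 0.45 in 2D and -0.12, 0.33 and -0.05 in 3D. So within each culture the targets' mean and the AKR1C genes had the same high library. 2D replicate 3 was the highest of all 6 libraries for 13 of the 29 targets (44.8%, against 17.6% of all genes tested) and for none of the 6 AKR1 genes. 3D replicate 2 was the highest of the 6 for 9 of the 29 targets (31.0%, against 16.4% of all) and for 4 of the AKR1 genes. Among 15 aldehyde dehydrogenases tested, 2D replicate 3 was the highest 2D library for 11 (73.3%) and the highest of the 6 for 7 (46.7%). So the high place of 2D replicate 3 was not particular to the NRF2 targets. 3D replicate 2 was the highest 3D library for 3 of those 15 enzymes. Of 12 genes of NRF2 and its partners, these counts within each culture were 4 for 2D replicate 3 and 6 for 3D replicate 2. NQO1, a quinone reductase and a typical target named after its values were seen, had 3187, 2641 and 10457 in 2D and 3402, 5587 and 3834 in 3D (limma adjusted p = 0.90). Whether the 2 libraries differ for technical reasons was not tested.

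**Figure D4:**
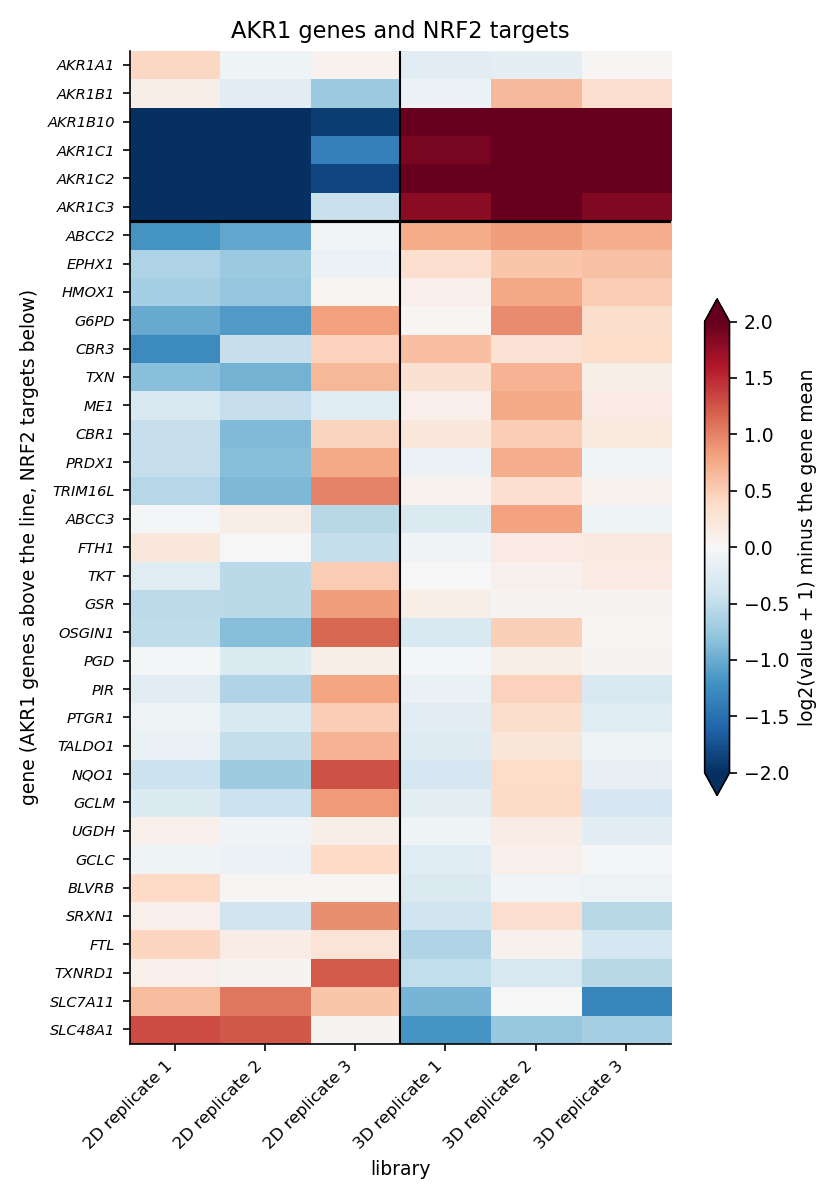
Log2(value + 1) minus the gene's mean over the 6 libraries (colour, limited to -2 to 2) for the 6 AKR1 genes above the line and 29 NRF2 targets below it, by library. AKR1B10 and the AKR1C genes divide by culture, while 13 of the 29 targets, NQO1 among them, are highest in 2D replicate 3.

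NFE2L2, which encodes NRF2, and 4 of its partner genes fell in the spheres. Of 12 genes tested, 5 fell and none rose by limma (at an unadjusted p under 0.05, 10 lower and 2 higher; by edgeR 4 lower and none higher; by DESeq2 8 lower and 1 higher), with a median log2 change of -0.79. NFE2L2 had 5677, 5259 and 3680.5 normalised counts in 2D and 2485, 2844 and 2503 in 3D (log2 -0.88, SE 0.20, limma adjusted p = 0.017). CUL3, the ubiquitin ligase scaffold that helps degrade NRF2, fell by 0.79 on the log2 scale, the small MAF protein MAFF fell by 1.97 and SQSTM1, an autophagy receptor, fell by 1.46 (limma adjusted p = 0.014, 0.015 and 0.040). KEAP1, the repressor of NRF2, had 1423 ± 259.5 in 2D and 981 ± 75.4 in 3D and did not pass (limma adjusted p = 0.074). The count of genes that fell rests on single libraries. It was 0 when 2D replicate 1 or 2 was left out, with none higher and 8 lower at an unadjusted p under 0.05, and 1 when 3D replicate 1 or 3 was. The fit lacking 2D replicate 3 had 8 lower and 2 higher.

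Among the other aldo-keto reductases, none of 6 genes tested passed by limma. At an unadjusted p under 0.05 there was 1, and edgeR and DESeq2 each called 1. KCNAB2, a potassium channel subunit of the same fold, came nearest, at 1602 ± 789 in 2D and 772 ± 75.2 in 3D (limma adjusted p = 0.0502), and passed without 2D replicate 3. AKR7A2, which reduces succinic semialdehyde, had 856 ± 309 and 751 ± 66.8.

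Among other enzymes that handle carbonyl groups, some passed in each direction, beside 12.5% higher and 11.6% lower of all genes tested. Of 18 short-chain reductases, RDH11 rose (log2 0.70, limma adjusted p = 0.023) and 2 fell, and the median log2 change was 0.27. The retinal reductase DHRS3 fell from 411 ± 302 to 3.52 ± 2.40 (log2 -6.21, SE 0.80, limma adjusted p = 0.0020), and DHRS2 from 357 ± 168 to 19.8 ± 19.1 (limma adjusted p = 0.0039). DHRS3 and AKR1B10 both act on retinal, and DHRS3 was low in the 3D libraries where AKR1B10 was high. The call of RDH11 held in 1 of 6 fits with a library left out (2D replicate 3), and those of DHRS2 and DHRS3 in all 6. Without 2D replicate 3, 7 of the 18 passed. Of 15 aldehyde dehydrogenases, which oxidise the aldehydes that AKR1 enzymes reduce, 1 rose and 2 fell, with a median of -0.15. ALDH3A1 rose from 41.8 ± 40.6 to 253 ± 47.6 (limma adjusted p = 0.010; not past the threshold without 3D replicate 3). ALDH3B1 fell by 1.08 and ALDH6A1 by 0.61 on the log2 scale (limma adjusted p = 0.0048 and 0.037), ALDH6A1 in 1 of 6 fits with a library left out. Between 1 and 6 of the 15 passed in those fits, the fewest without 3D replicate 3 and the most without 2D replicate 3.

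Of 17 steroid-converting enzymes, 4 rose and 2 fell, with a median log2 change of 0.16. HSD17B7, which acts in cholesterol and estrogen synthesis, rose from 162 ± 169 to 1090.2 ± 278 (log2 3.22, SE 0.60, limma adjusted p = 0.0084), with 357 in 2D replicate 3 against 66.7 and 61.9 in the others. Steroid sulfatase (STS) fell from 1532 ± 101.2 to 416 ± 113 (log2 -1.92, limma adjusted p = 0.0015). SRD5A1, which makes the dihydrotestosterone that AKR1C2 removes, rose by log2 0.56, and SRD5A3 fell by 1.13 on that scale (limma adjusted p = 0.041 and 0.014). The call of SRD5A1 held in 1 of 6 fits with a library left out, and that of SRD5A3 in 2. HSD3B1 (no read in 2D, 7.42 to 35.1 normalised counts in 3D) and CYP17A1 (at most 1.07 in 2D, 9.69 to 35.1 in 3D), named after their values were seen, also passed, at low levels. Both passed the filter on low values only through their values in 3D. With a filter of at least 50, 13 steroid-converting enzymes were tested, and 2 rose and 2 fell. Among nuclear receptors for steroids, ESR1, an estrogen receptor, fell from 169.6 ± 89.6 to 22.1 ± 12.8 (limma adjusted p = 0.0095) and the glucocorticoid receptor NR3C1 from 2902 ± 469.9 to 1367 ± 148 (limma adjusted p = 0.0061). Of 3 receptors tested, 2 fell and none rose by limma, edgeR or DESeq2, with none higher at an unadjusted p under 0.05.

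AKR1C3 and AKR1B1 are also prostaglandin F synthases. Of 12 genes of prostaglandin synthesis and breakdown tested, 6 rose and none fell by limma, edgeR or DESeq2 (none lower at an unadjusted p under 0.05), with a median log2 change of 1.27. The count depends on genes of low values: with a filter of at least 50, 9 were tested and 3 rose. PLA2G4A, the phospholipase that frees arachidonic acid, rose from 71.2 ± 21.6 to 269 ± 39.4. The cyclooxygenases followed, PTGS1 from 793 ± 430 to 2881 ± 192 and PTGS2 from 12.9 ± 3.14 to 137 ± 34.7 (log2 3.31, SE 0.35, limma adjusted p = 0.00087). The adjusted p by limma was 0.0038 for PLA2G4A and 0.0049 for PTGS1, and all 3 genes passed in each fit with a library left out. The E synthases PTGES, PTGES2 and PTGES3 did not pass. HPGD, a breakdown gene named after its values were seen, had log2 changes of 1.81 to 2.92 with 1 library left out. It passed in 3 of those 6 fits. With a library left out, 3 to 8 of the 12 passed, the fewest without 3D replicate 1 and the most without 2D replicate 3.

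In the polyol and osmotic group, to which AKR1B1 belongs by function, 4 of 10 genes rose and none fell by limma (1 lower at an unadjusted p under 0.05; edgeR 3 higher and none lower, DESeq2 4 higher and 1 lower), with a median log2 change of 0.86. SLC5A3, the myo-inositol importer, had 1030, 1428 and 1572 normalised counts in 2D and 8054, 2518 and 6173 in 3D (limma adjusted p = 0.012), so that 3D replicate 2 was the lowest 3D library, against its place for AKR1B1. The taurine importer SLC6A6 showed the same order in 3D (log2 1.32, limma adjusted p = 0.038), and its libraries overlapped between the cultures only in 2D replicate 3 and 3D replicate 2. SLC6A12 and hexokinase HK1 also passed (limma adjusted p = 0.033 and 0.038). With a library left out, 0 to 7 of the 10 passed, none when 3D replicate 3 was dropped, 1 when 2D replicate 1 or 2 or 3D replicate 1 was, and 7 when 2D replicate 3 was.

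**Figure D5:**
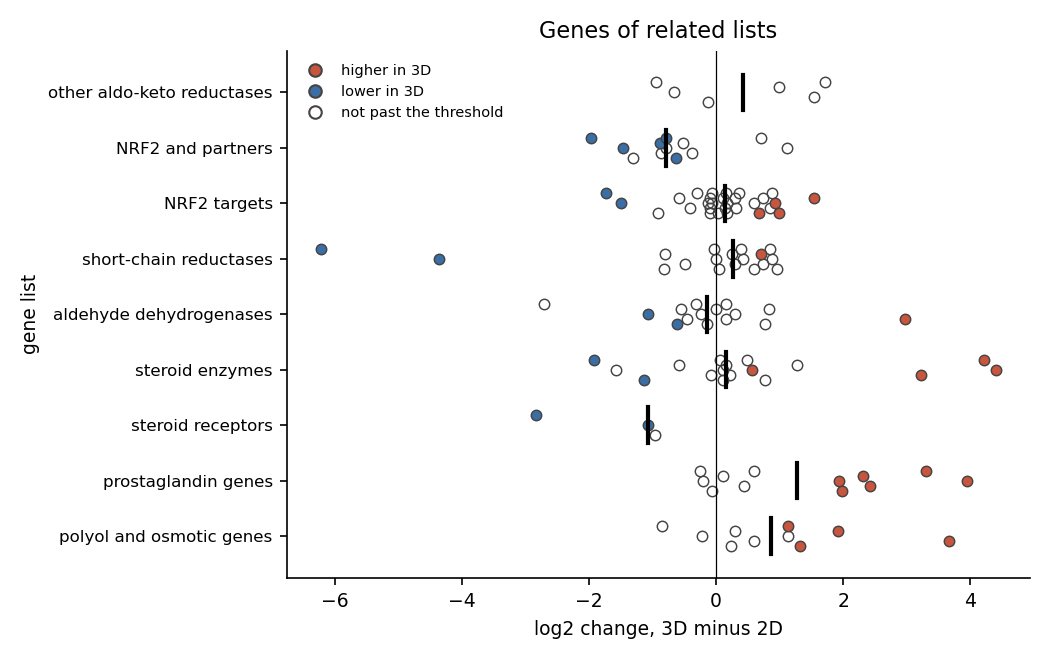
Log2 change (3D minus 2D) of each tested gene in the 9 related gene lists, filled where limma's adjusted p was under 0.05 (red higher, blue lower), with a black bar at the list's median. The prostaglandin list has its median at 1.27 and the list of NRF2 and its partners at -0.79.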

How the data were processed

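M14 RNA was sequenced from 2D and 3D cultures, 3 libraries each, grouped by sample title. The tools named in the submitters' processing notes are DESeq2, featureCounts 1.5.0 and HISAT2, and the build is GRCh38/hg38; which annotation release was counted is not given in the sources used here. Each deposited value is a signal: the authors divided a gene's read count by 1 factor per library, and 100% of values came out as whole reads (tolerance 0.01). The labels do not say that replicates were separate cultures, so p-values measure the spread between libraries only, and that may be technical.

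Genes with a mean of at least 10 were tested with limma 3.58.1 (R 4.3.3, trend) on log2(value + 1), culture as the only term, Benjamini-Hochberg adjusted at 0.05; fold changes are on this scale, which understates low genes. edgeR 4.0.16 and DESeq2 1.42.0 on recovered reads, other pseudocounts, filters, scalings and left-out libraries were alternatives. Of the table's genes, 26506 had a symbol. Windows and coding sequences came from GENCODE 29 transcripts (Biopython 1.88), promoters from RefSeq. The method was tested on simulated counts.

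The 6 genes and all lists were chosen with earlier results of these data known. Named are every AKR1 gene and, of each list, every gene past the threshold where at most 4 were, otherwise the 4 of largest change whose higher culture had a mean of at least 100, plus up to 3 abundant genes not past it; of the neighbours, every gene past it; and the 3 most alike protein-coding genes. Other names are marked or were chosen after their values were seen. The alternatives that leave out both doubted libraries or use coding length were chosen after seeing the data.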

Additional observations from a re-analysis of the deposited data

How the results depend on the processing

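Since the 6 AKR1 genes were chosen with this contrast in view, how their values move is a description and no support for them. AKR1B10, with a mean of 35.0, was not tested with a filter of at least 50. The log2 changes of AKR1C2 and AKR1B10 moved with the pseudocount, to 8.69 and 6.76 at 0.1 and to 3.70 and 2.83 at 10. AKR1B10 stood at 5.95 with edgeR and 6.11 with DESeq2. Rescaling to equal library totals moved the median of all genes from -0.02 to 0.11.

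With 1 library left out, 1190 to 7111 genes passed in all, 0 to 10 of NRF2 and its partners, 2 to 15 of its targets, 0 to 2 of the other aldo-keto reductases, 2 to 7 short-chain reductases, 1 to 6 aldehyde dehydrogenases, 3 to 8 prostaglandin genes and 0 to 7 polyol and osmotic genes. The highest count of each came without 2D replicate 3. Without both 2D replicate 3 and 3D replicate 2, which leaves 2 libraries a culture, 9041 genes passed, with 12 of NRF2 and its partners, 17 targets, 3 other aldo-keto reductases, 10 short-chain reductases, 12 steroid enzymes, 8 polyol and osmotic genes and 8 aldehyde dehydrogenases. The main count was 3766. Why the counts rose was not tested.

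Of the other aldo-keto reductases, 1 passed with a pseudocount of 10, TMM scaling, edgeR, DESeq2 or the replicate block, and 2 without a filter. DESeq2 called 9 of NRF2 and its partners. A filter of at least 50 left 9 prostaglandin genes tested and 3 past the threshold, against 12 tested and 6 past it in the main fit. Replicate numbers share only a number, since deviations of same-numbered libraries correlated at -0.084, -0.14 and 0.045, and no library correlated best with its own number except 2D replicate 3 and 3D replicate 3. With the number as a replicate block, 3222 genes passed and the same count of AKR1 genes, 4. The depth limits AKR1C2 and AKR1B10 in 2D, where 3 reads each were found.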
